A study of Rattus norvegicus with 20 samples.

Results

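The fibulins, elastin and the microfibril genes encode the proteins from which elastic fibres are built. They were followed by RNA sequencing in cultures labelled as neonatal rat cardiomyocytes, the beating muscle cells of the newborn heart. The 10 genes listed were Efemp1, Efemp2, Fbln5, Fbln1, Fbln2, Fbn1, Fbn2, Mfap5, Lox and Eln. Rows were found by the KEGG name of the gene, else by the gene of its protein accession, else by its protein name. That gave 9 genes of the 15503 in the table. No row could be assigned to Eln in this way, so elastin was not analysed and its level is not known here. All 9 passed the filter on low counts, among 15449 genes tested. The genes were selected on a list made with measured values of these samples in view. The change of Efemp1 in doxorubicin alone against PBS was among those values, and that contrast is given as a description without a test. Which other values were seen is not recorded, so the remaining contrasts may not be independent of the choice either.

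Each of 4 groups held 5 libraries, 20 in all, from cells kept 72 h. CMDH cultures received histidine at 100 nM and doxorubicin at 1 µM, CMD cultures doxorubicin alone, CMH cultures histidine alone and CMC cultures PBS. Histidine is an amino acid, and doxorubicin is an anthracycline cancer drug that poisons topoisomerase II and is toxic to the heart. Whether the 5 libraries of a group came from separate cultures is not in the labels, and a p-value here measures no more than the spread among libraries, possibly a technical one.

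Elastic fibres give arteries, lungs, skin and heart valves their recoil. Fibrillins assemble into microfibrils in the matrix, tropoelastin is deposited on them with the help of the short fibulins, and lysyl oxidase, a copper enzyme, crosslinks the elastin. In the heart the long fibulins and fibrillins lie mainly in the valves, the vessel walls and the matrix laid down by fibroblasts.

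Libraries held 53246205 to 83624651 counted reads. CMD replicate 4 stood apart, with FPKM values summing to 517265 against 373417 to 398545 in the other 19 libraries. CMD replicate 3 was low in several matrix genes. The labelled cell type was checked against its markers. The 13 cardiomyocyte markers measured summed to 205 to 228 CPM in CMDH, 187 to 313 CPM in CMD, 979.6 to 1155 CPM in CMH and 1080 to 1235 CPM in CMC, where CPM is the read count divided by a library size that TMM had adjusted. The 12 fibroblast markers summed to 47457 to 61145 CPM in CMDH, 32489 to 56797 CPM in CMD, 59323 to 78818 CPM in CMH and 74957 to 82475 CPM in CMC. Col1a1, Col3a1 and Col1a2 made up most of the fibroblast sums, with means of 27734, 13141.5 and 11366 CPM in CMDH. Their means in CMC were 42013, 18302 and 17538 CPM. The fibroblast sums therefore say little about the other markers of that list. No marker of either list was at 0 in every library of a group. Levels below are therefore those of a mixed culture, and fewer cells of a type cannot be told apart from less RNA per cell.

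Levels were compared between genes per length, as the deposited FPKM. In every group Fbln2, a long fibulin of developing valves, was the most abundant of the 9, with 641 ± 55.2 FPKM in CMDH, 651 ± 111 FPKM in CMD, 573 ± 32.6 FPKM in CMH and 562 ± 32.9 FPKM in CMC (SD, n = 5 each). In CMC cultures the order then ran Lox at 255 FPKM, Fbn1 at 239 FPKM, Fbln5 at 189.6 FPKM, Efemp2 at 133 FPKM, Fbln1 at 34.0 FPKM, Mfap5 at 4.27 FPKM, Fbn2 at 2.70 FPKM and Efemp1 at 1.20 FPKM. Of these neighbours in CMC, the ranges of Lox and Fbn1 overlapped and the others did not. CMH cultures had the same order, and there the ranges of Lox, Fbn1, Fbln5 and Efemp2 overlapped from each to the next. In CMDH cultures Efemp1 was sixth at 27.1 ± 4.45 FPKM, beside Fbln1 at 22.7 ± 2.45 FPKM (SD, n = 5 each), and the ranges of these neighbours overlapped. Fbn2 was last in CMDH at 1.14 FPKM and in CMD at 0.671 FPKM. The order in CMD was that of CMDH, with overlapping ranges also between Fbn1 and Lox and between Lox and Efemp2.

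**Figure D1:**
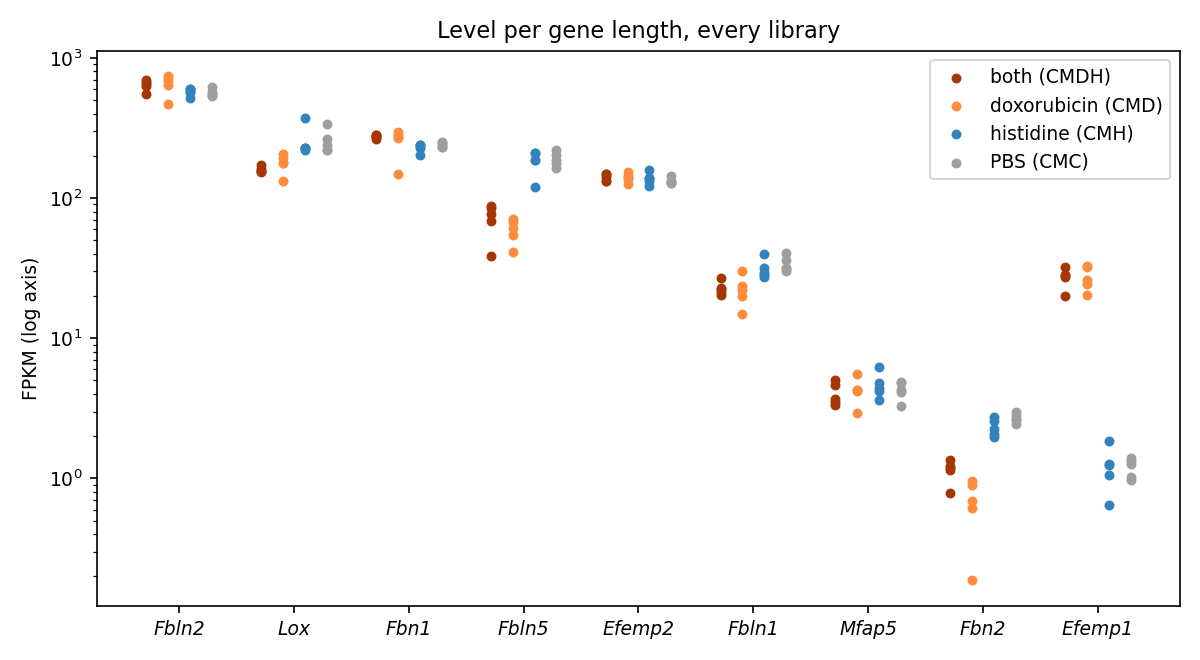
FPKM of the 9 genes in every library, on a log axis, with genes ordered by their mean in PBS cultures and the 4 groups side by side in colour. Efemp1 lies at 19.98 to 32.9 FPKM in the 10 libraries with doxorubicin and at 0.641 to 1.85 FPKM in the 10 without it.

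Doxorubicin was tested between the histidine-treated cultures, CMDH against CMH, whose libraries are not those of doxorubicin alone against PBS. The spread behind each p-value nevertheless came from all 20 libraries, those of CMD and CMC included. Of the 9 genes, 1 was higher (Efemp1) and 4 were lower (Fbln5, Fbn2, Lox and Fbln1) in CMDH cultures, while Efemp2, Fbln2, Fbn1 and Mfap5 did not pass. Genes were called by edgeR's quasi-likelihood test, with Benjamini-Hochberg adjustment over all genes and a threshold of 0.05. It called 40.2% of all 15449 genes, 19.9% higher and 20.3% lower. Libraries did not overlap between the groups for 6 of the 9 genes (CMDH above CMH for Efemp1 and Fbn1, below it for Fbln5, Fbn2, Lox and Fbln1), against 35.2% of all genes. The median log2 fold change was -0.24 over the 9 genes and 0.01 over all genes tested. A count of 5 in 9 is read against that background, and what follows is about the single genes.

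**Figure D2:**
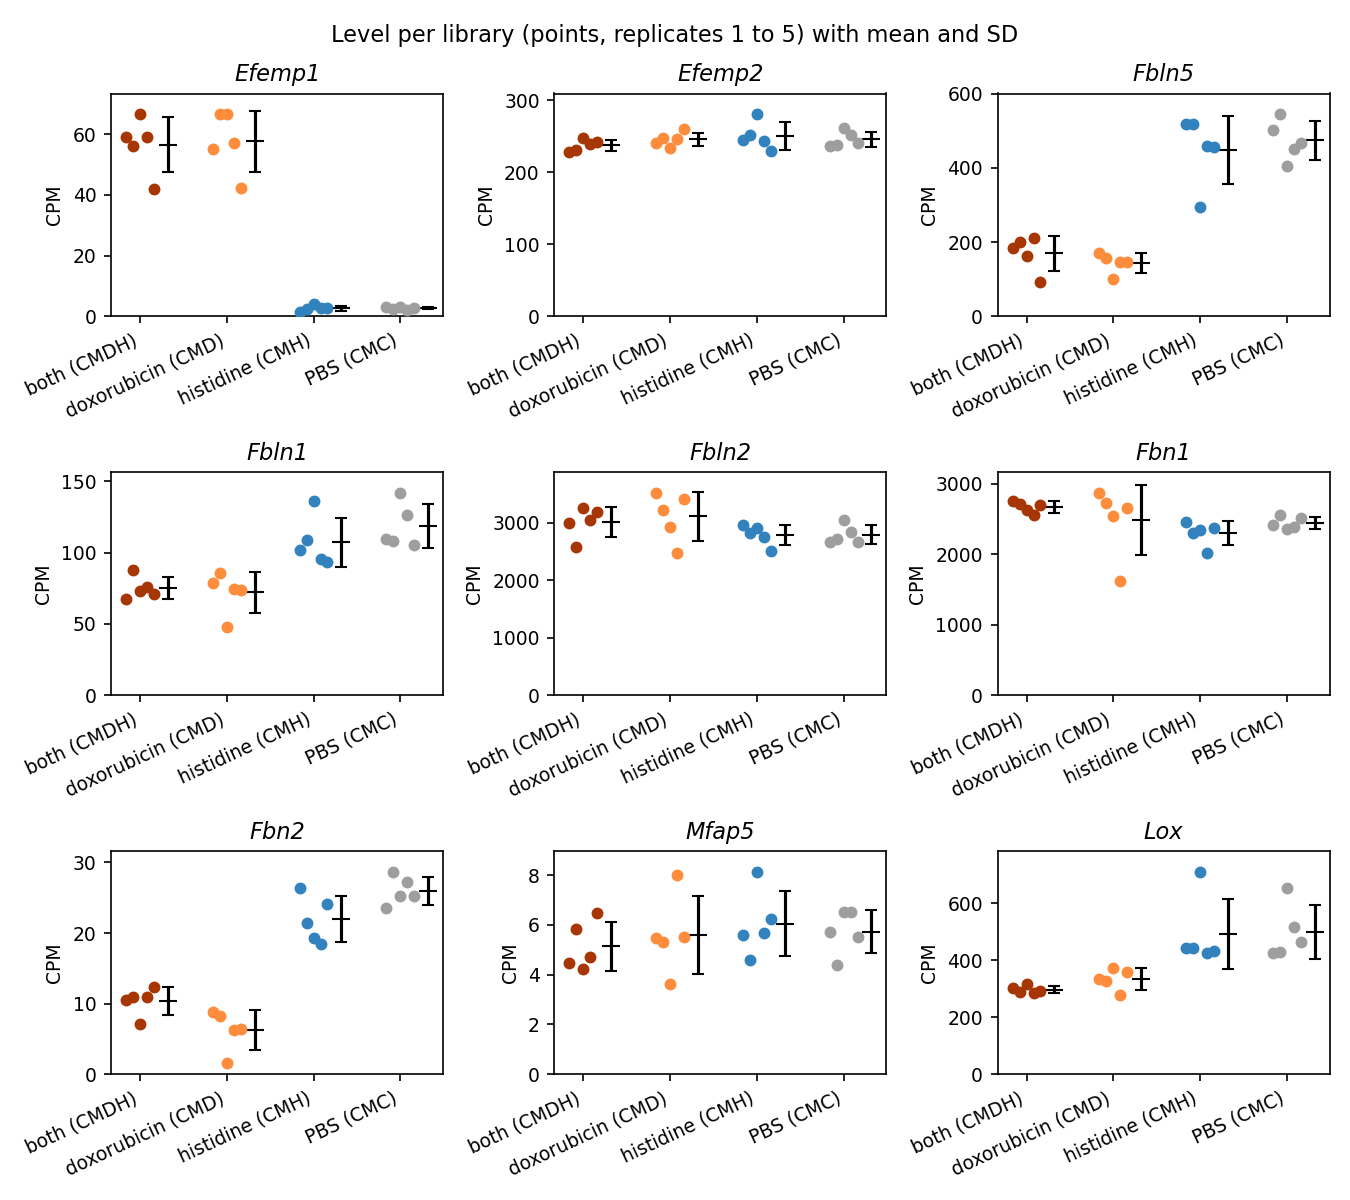
CPM of each gene in every library, on linear axes that start at 0, with points for replicates 1 to 5 and the bar for the mean and SD of the group. The CMDH and CMD libraries of Efemp1 lie at 41.8 to 66.7 CPM, and every CMH and CMC library lies under 4 CPM.

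Efemp1 encodes a short fibulin that binds the metalloproteinase inhibitor encoded by Timp3, and it was the gene that rose. It had 59.0, 56.0, 66.6, 59.2 and 41.8 CPM in CMDH cultures, against 1.42, 2.29, 3.98, 2.73 and 2.68 CPM in CMH cultures. Every CMDH library was above every CMH library, and the reads behind these values ran from 2711 to 4346 per library in CMDH and from 99 to 251 in CMH. The rise was 21.6-fold (log2 fold change 4.43 ± 0.22 SE, adjusted p = 3.47e-12). In the mRatBN7.2 build Efemp1 (ENSRNOG00000003553) occupies chromosome 14, plus strand, 102610908 to 102690018.

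Fbln5, the short fibulin that binds cells through integrins and is needed for elastic fibres in mice, moved the other way. It stood at 183, 199, 163, 210.4 and 92.0 CPM in CMDH cultures, against 519, 517, 294, 459 and 456 CPM in CMH cultures. Replicate 5 of CMDH and replicate 3 of CMH were the lowest of their groups, and the groups did not overlap. Fbln5 fell 2.65-fold (log2 fold change -1.40 ± 0.19 SE, adjusted p = 6.88e-06). Fbln5 (ENSRNOG00000050539) occupies chromosome 6, minus strand, 120899224 to 120977755.

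Efemp2, the short fibulin that brings lysyl oxidase to tropoelastin, had 228, 230.3, 247, 239.6 and 242 CPM in CMDH cultures, against 245, 252, 281, 243 and 229 CPM in CMH cultures. These groups overlapped, and the log2 fold change of -0.08 (95% confidence interval -0.19 to 0.04) did not pass, with an adjusted p of 0.308. Efemp2 (ENSRNOG00000020587) occupies chromosome 1, plus strand, 202781665 to 202789414. Efemp1, Fbln5 and Efemp2, the short fibulins among the genes listed, thus gave 1 higher, 1 lower and 1 not past the test.

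**Figure D3:**
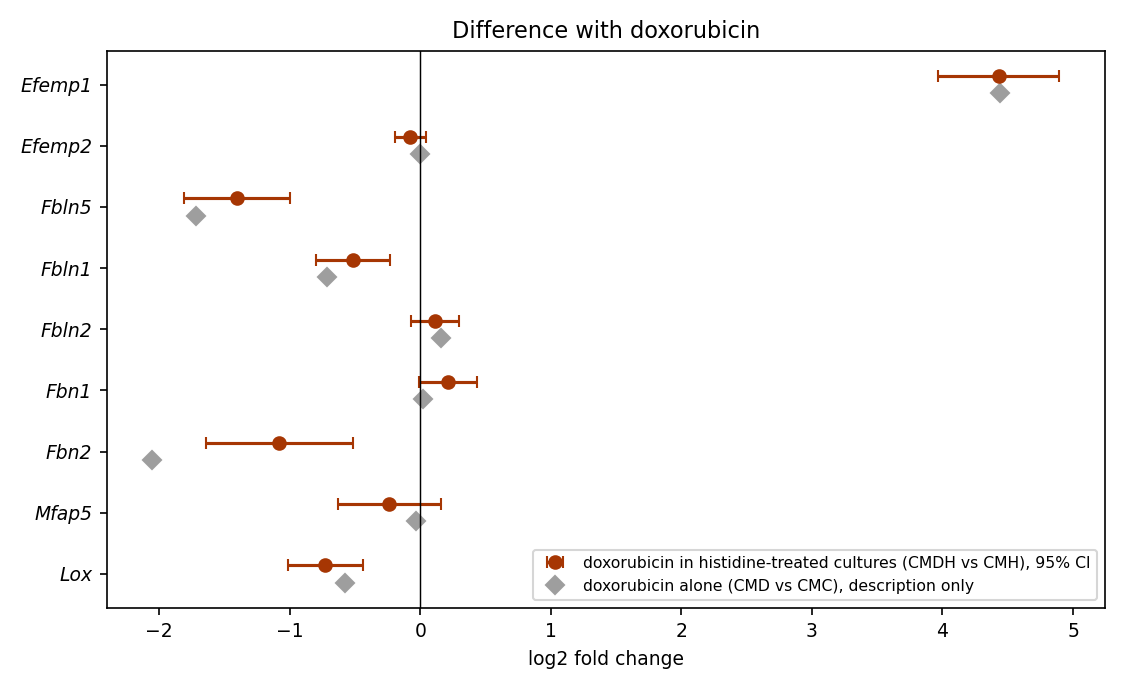
Log2 fold change of the 9 genes with doxorubicin, with circles and 95% confidence intervals for CMDH against CMH and diamonds, without a test, for CMD against CMC. Efemp1 stands at 4.43 and 4.44, and Fbn2 at -1.08 and -2.05.

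To set the short fibulin that rose beside genes that fell or did not pass, the 250 bases before their start sites are shown, from RefSeq promoters of GRCr8 in the direction of the gene. Promoters were matched by symbol for 7 genes (Efemp1, Efemp2, Fbln5, Fbln2, Fbn1, Fbn2 and Mfap5). Capitals mark matches, on either strand, to any of 5 motifs: the TATA box TATAAA, the GC box GGGCGG, the AP-1 site TGANTCA, the TEAD site CATTCC and the antioxidant response element core TGANNNNGC. N stands for any base, so the AP-1 and antioxidant patterns are loose forms. A match to either need not be the consensus site. Matches that overlap each other share their capitals. The Efemp1 window is chr14:106811614-106811863 on the plus strand, that of Fbln5 is chr6:126742707-126742956 on the minus strand, that of Efemp2 is chr1:212211472-212211721 on the plus strand and that of Fbn2 is chr18:53901993-53902242 on the minus strand.
Efemp1: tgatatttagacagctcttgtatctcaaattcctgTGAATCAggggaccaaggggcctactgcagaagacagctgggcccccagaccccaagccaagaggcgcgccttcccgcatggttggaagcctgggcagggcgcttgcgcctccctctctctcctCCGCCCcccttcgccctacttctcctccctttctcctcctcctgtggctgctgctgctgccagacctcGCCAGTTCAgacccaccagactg
Fbln5: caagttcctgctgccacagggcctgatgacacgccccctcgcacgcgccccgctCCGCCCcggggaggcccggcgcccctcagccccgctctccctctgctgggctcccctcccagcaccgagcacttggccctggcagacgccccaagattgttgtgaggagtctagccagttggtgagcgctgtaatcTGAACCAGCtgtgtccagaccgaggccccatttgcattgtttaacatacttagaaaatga
Efemp2: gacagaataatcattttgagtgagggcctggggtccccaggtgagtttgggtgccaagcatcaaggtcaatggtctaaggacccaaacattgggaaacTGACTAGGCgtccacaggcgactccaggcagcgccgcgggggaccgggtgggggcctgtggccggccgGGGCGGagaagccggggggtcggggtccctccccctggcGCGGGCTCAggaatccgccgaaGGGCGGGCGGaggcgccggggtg
Fbn2: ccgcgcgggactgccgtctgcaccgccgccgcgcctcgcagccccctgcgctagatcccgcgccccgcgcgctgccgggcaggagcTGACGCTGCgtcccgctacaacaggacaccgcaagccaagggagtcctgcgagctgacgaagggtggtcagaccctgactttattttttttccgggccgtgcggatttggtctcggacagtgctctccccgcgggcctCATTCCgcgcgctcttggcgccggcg

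In these windows the loose AP-1 pattern was found in Efemp1, as TGAATCA, starting at -215 from the start site. This pattern was absent from the other 6 genes matched. It was present in 6.34% of all 33469 promoters of that length. A GC box, held by 30.5% of promoters, was found at -91 in Efemp1 and at -196 in Fbln5, with 3 in Efemp2 and 3 in Fbln2. The loose antioxidant pattern, held by 34.7%, was found at -23 in Efemp1, at -60 in Fbln5 and at -164 in Fbn2, with 2 in Efemp2. Fbn2 alone of the 7 held the TEAD motif, at -26, which 12.1% of promoters held. A TATA box, held by 12.9%, was found in none of the 7. GC content was 61.2% for Efemp1, 63.2% for Fbln5, 68% for Efemp2 and 70.0% for Fbn2, against a median of 51.2% over all promoters. A match describes the letters and is not evidence of binding.

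Fbln1 and Fbln2 are the long fibulins, of basement membranes and of the valve-forming cushions. Fbln1 had 67.8, 87.5, 73.4, 75.7 and 71.2 CPM in CMDH cultures, against 102, 109, 136, 95.8 and 93.5 CPM in CMH cultures. The groups did not overlap, and Fbln1 fell 1.43-fold (log2 fold change -0.51 ± 0.14 SE, adjusted p = 0.00483). Fbln2 had 2994, 2574, 3255, 3054 and 3187 CPM in CMDH cultures, against 2968, 2813, 2906, 2751 and 2517 CPM in CMH cultures. Its groups overlapped and its log2 fold change of 0.11 ± 0.09 (SE) did not pass, with an adjusted p of 0.349. Per length, Fbln2 stood at 28.6 ± 4.61 times the FPKM of Fbln1 in CMDH, 30.7 ± 8.29 times in CMD, 18.6 ± 2.20 times in CMH and 16.7 ± 1.17 times in CMC (SD, n = 5 each). Fbln1 (ENSRNOG00000014137) lies on chromosome 7 at 116310582 to 116390075 and Fbln2 (ENSRNOG00000007338) on chromosome 4 at 123704373 to 123763948, both on the plus strand.

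Fbn1 encodes the main fibrillin of postnatal microfibrils, mutated in Marfan syndrome in humans, and Fbn2 the fibrillin made mostly in development. Fbn2 had 10.5, 11.0, 7.14, 10.9 and 12.4 CPM in CMDH cultures, against 26.3, 21.4, 19.3, 18.5 and 24.2 CPM in CMH cultures. Every CMDH library was below every CMH library, and Fbn2 fell 2.11-fold (log2 fold change -1.08 ± 0.27 SE, adjusted p = 0.00318). On log2(FPKM + 1), a scale that understates changes of low genes, the log2 fold change of Fbn2 was -0.63 and still passed with limma. Fbn1 had 2754, 2721, 2630.1, 2558 and 2697 CPM in CMDH cultures, against 2456, 2309.9, 2349.9, 2023 and 2369.6 CPM in CMH cultures. Here too the groups did not overlap, with CMDH above CMH, but the log2 fold change of 0.22 ± 0.11 (SE) did not pass, with an adjusted p of 0.117.

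The spread used for Fbn1 came from all 4 groups, and CMD replicate 4 held 1628 CPM of Fbn1, against 2540.4 to 2874 CPM in the other 4 CMD libraries. With CMD replicate 4 out of the shared fit the adjusted p of Fbn1 was 0.00108, and with only the CMDH and CMH groups in the fit it was 0.00985, at log2 fold changes of 0.22 and 0.21. Fbn2 made up 0.412 ± 0.0758% of the summed FPKM of both fibrillins in CMDH, 0.276 ± 0.128% in CMD, 1.00 ± 0.102% in CMH and 1.12 ± 0.0767% in CMC (SD, n = 5 each). Fbn1 (ENSRNOG00000007302) lies on chromosome 3 at 112554925 to 112750889 and Fbn2 (ENSRNOG00000043219) on chromosome 18 at 51499737 to 51703976, both on the minus strand.

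Mfap5, a small glycoprotein bound to microfibrils, was low throughout, at 4.48, 5.82, 4.21, 4.69 and 6.47 CPM in CMDH cultures, against 5.58, 4.61, 8.14, 5.67 and 6.22 CPM in CMH cultures. Its groups overlapped, and the log2 fold change of -0.24 (95% confidence interval -0.63 to 0.16) did not pass, with an adjusted p of 0.350. Mfap5 (ENSRNOG00000015505) occupies chromosome 4, plus strand, 155727925 to 155750458.

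Lox encodes lysyl oxidase, which crosslinks elastin and collagen. It had 301, 288, 316, 285 and 292 CPM in CMDH cultures, against 444, 444, 709.7, 423 and 432 CPM in CMH cultures. The CMDH libraries lay close together and below every CMH library, among which replicate 3 was far above the others. Lox fell 1.65-fold (log2 fold change -0.73 ± 0.14 SE, adjusted p = 0.000267). Without CMH replicate 3 the log2 fold change was -0.56 ± 0.11 (SE), with an adjusted p of 0.000377. Lox (ENSRNOG00000014426) occupies chromosome 18, minus strand, 45967343 to 46041477.

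In CMD against CMC, the contrast known when the list was made, Efemp1 had 55.0, 66.7, 66.7, 57.2 and 42.3 CPM in CMD cultures, against 2.93, 2.27, 3.08, 2.16 and 2.81 CPM in CMC cultures. Fbln5 had 171, 158, 101, 145 and 146 CPM in CMD cultures, against 502, 546, 406, 450.0 and 466 CPM in CMC cultures. Efemp1 was 21.7-fold higher and Fbln5 3.29-fold lower in CMD, and neither overlapped between the groups. Fbn2 had 8.82, 8.19, 1.67, 6.32 and 6.35 CPM in CMD cultures, against 23.5, 28.7, 25.2, 27.2 and 25.3 CPM in CMC cultures. It was 4.15-fold lower in CMD, with CMD replicate 3 the lowest library, and without that library the log2 fold change was -1.81 in place of -2.05. Lox had 335, 326, 373, 276 and 359.8 CPM in CMD cultures, against 424, 429, 654, 516 and 465 CPM in CMC cultures. Fbln1 had 79.0, 85.7, 47.6, 74.6 and 73.8 CPM in CMD cultures, against 109.8, 108, 142, 127 and 106 CPM in CMC cultures. Lox was 1.49-fold and Fbln1 1.64-fold lower in CMD, again without overlap.

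The log2 differences of CMD from CMC were 0.16 for Fbln2, 0.02 for Fbn1, -0.04 for Mfap5 and 0.00 for Efemp2, and each of these overlapped between the groups. Groups thus did not overlap for 5 of the 9 genes, against 31.1% of all genes. With CMD replicate 4 left out the log2 difference was 0.23 for Fbln2 and 0.14 for Fbn1. No support is taken from this contrast.

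Within the short fibulins Efemp1, Fbln5 and Efemp2 the share of each gene in their summed FPKM differed between cultures with and without the drug. Efemp1 made up 11.3 ± 1.21% in CMDH, 12.04 ± 2.47% in CMD, 0.386 ± 0.173% in CMH and 0.372 ± 0.0671% in CMC (SD, n = 5 each). Fbln5 made up 29.6 ± 6.68% in CMDH, 26.0 ± 4.17% in CMD, 56.2 ± 7.65% in CMH and 58.4 ± 3.85% in CMC. Efemp2, whose level did not pass the test, made up 59.1 ± 7.29% in CMDH, 62.0 ± 3.40% in CMD, 43.4 ± 7.49% in CMH and 41.3 ± 3.80% in CMC. Of these genes Efemp2 thus had the largest share with the drug and Fbln5 without it, as group means.

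Histidine was tested alone, CMH against CMC, and on top of doxorubicin, CMDH against CMD. In CMH against CMC edgeR called 0 of the 9 genes, with 0 at an unadjusted p under 0.05 and 0 by DESeq2, where 0% of all genes were called and 2.02% had an unadjusted p under 0.05. Groups overlapped for all 9 genes, where 0.841% of all genes did not overlap. Efemp1 differed by -0.02 on the log2 scale (95% confidence interval -0.44 to 0.41), Fbln5 by -0.08 (-0.47 to 0.32), Lox by -0.02 (-0.31 to 0.27) and Fbn2 by -0.24 (-0.80 to 0.31). The narrowest intervals were those of Efemp2, at 0.03 (-0.09 to 0.14), and Fbln2, at 0.00 (-0.18 to 0.19).

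In CMDH against CMD edgeR called 0 of the 9 genes and DESeq2 called 0, where edgeR called 0% of all genes and 12.6% had an unadjusted p under 0.05. The exception at an unadjusted p under 0.05 was Fbn2, with 10.4 ± 1.96 CPM in CMDH and 6.27 ± 2.80 CPM in CMD (SD, n = 5 each). Groups overlapped for it and the other 8 genes, where 1.06% of all genes did not overlap. Its log2 fold change of 0.73 ± 0.27 (SE, 95% confidence interval 0.17 to 1.30) failed the correction with an adjusted p of 0.393. Without CMD replicate 3 that log2 fold change was 0.49 ± 0.15 (SE), with an adjusted p of 0.299, and over the alternatives its adjusted p ran from 0.211 to 0.923. Efemp1 differed by -0.03 (95% confidence interval -0.42 to 0.37), Fbln5 by 0.24 (-0.16 to 0.63) and Lox by -0.17 (-0.46 to 0.11) on the log2 scale.

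Whether histidine altered the response to doxorubicin was tested by the interaction, which CMDH, CMD, CMH and CMC libraries share. None of the 9 genes passed in edgeR or DESeq2, with 1 at an unadjusted p under 0.05, against 6.86% of all genes. That gene was Fbn2, at 0.98 ± 0.38 (SE) with an adjusted p of 0.631. For Efemp1 the interaction was -0.01, with a 95% confidence interval of -0.59 to 0.57, and for Fbln5 it was 0.31 (-0.25 to 0.87).

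**Figure D4:**
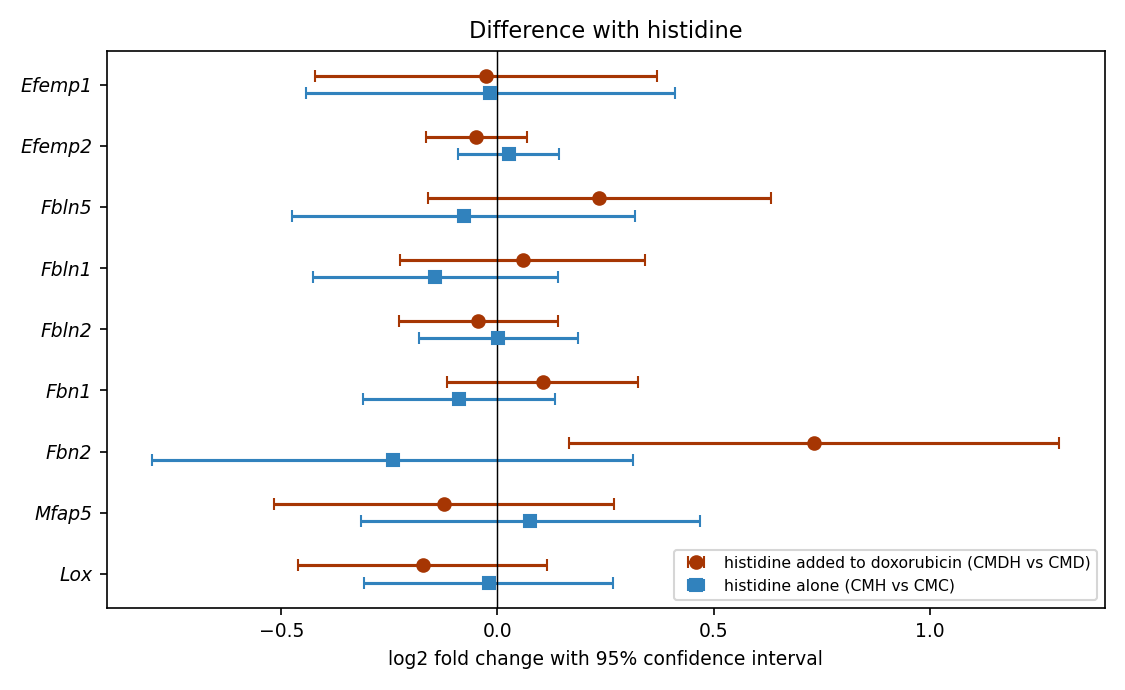
Log2 fold change of the 9 genes with histidine, with circles for CMDH against CMD and squares for CMH against CMC, and bars for the 95% confidence interval. All intervals include 0 except that of Fbn2 in CMDH against CMD, 0.17 to 1.30, which failed the correction over all genes.

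Other genes of the elastic fibre were counted by lists in CMDH against CMH, against the 40.2% of all genes called. Of 28 elastic fibre partners measured, 8 rose, 9 fell and 11 did not pass, with a median log2 fold change of 0.03. Adamtsl3, of a family that binds fibrillin, fell 2.70-fold, to 12.2 ± 0.877 CPM in CMDH against 33.0 ± 7.38 CPM in CMH (SD, n = 5 each). Thsd4, another gene of that family, which promotes microfibril assembly, fell 2.19-fold. Tnxb, a tenascin whose human gene is lost in a form of Ehlers-Danlos syndrome, rose 4.28-fold, to 8.69 ± 1.39 CPM in CMDH against 2.03 ± 0.577 CPM in CMH (SD, n = 5 each). The lysyl oxidase relative Loxl4 rose 1.93-fold, to 47.1 ± 2.43 CPM in CMDH against 24.3 ± 3.22 CPM in CMH (SD, n = 5 each), where Lox fell, while Loxl1, Loxl2 and Loxl3 had log2 differences of -0.16, 0.20 and 0.11 that did not pass. The other 6 that rose were Bgn, Ltbp1, Fn1, Emilin2, Adamtsl5 and Vcan, by 1.25-fold to 1.64-fold. The others that fell were Mfap2, Adamtsl2, Mfap4, Hmcn1, Ltbp4, Emilin1 and Mfap3, by 1.15-fold to 2.88-fold. Fn1, fibronectin, on which microfibrils are laid down in culture, was the most abundant, at 38462 ± 1149 CPM in CMDH and 24908 ± 3411 CPM in CMH (SD, n = 5 each), a 1.54-fold rise.

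Among 11 genes of matrix protein maturation and copper supply, 3 rose, 3 fell and 5 did not pass. Atp7a, the pump that loads copper into lysyl oxidase, rose 1.72-fold with an adjusted p of 1.32e-06, while Slc31a1, the copper importer of the cell surface, fell 1.24-fold with an adjusted p of 0.000963. Bmp1, the protease that activates lysyl oxidase, rose 1.34-fold, while its relative Tll1 fell 1.36-fold. Of the collagen prolyl hydroxylase genes P4ha2 rose 1.54-fold and P4ha1 fell 1.29-fold, to 514 ± 25.2 CPM in CMDH against 666 ± 40.5 CPM in CMH (SD, n = 5 each). Of 10 elastin-degrading proteases and their inhibitors, 4 rose, 3 fell and 3 did not pass. Those that rose were the proteases Mmp2 and Ctsk and the inhibitors Timp1, 1.59-fold, and Timp2, 1.40-fold. Mmp2, gelatinase A, rose 2.45-fold, to 2968 ± 159.6 CPM in CMDH against 1210.4 ± 116 CPM in CMH. Ctss, a lysosomal cathepsin, fell 44.6-fold, to 1.58 ± 0.367 CPM in CMDH against 70.8 ± 5.15 CPM in CMH, and Mmp12, the macrophage metalloelastase, fell 11.5-fold (SD, n = 5 each). Of the other cathepsins Ctsl fell 2.38-fold and Ctsk rose 1.55-fold, while Mmp9 did not pass, with an adjusted p of 0.247.

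All 9 integrin genes of the list passed, 4 higher and 5 lower, with Itgav, the shared alpha chain of many matrix receptors, 1.42-fold higher. Of the beta chains Itgb8 was 1.85-fold and Itgb3 1.50-fold higher, while Itgb5 was 1.41-fold lower. Itgb6 was 4.67-fold higher, at 1.05 CPM in CMDH against 0.224 CPM in CMH. Itgb1, the beta chain with the most partners, fell 1.43-fold and Itga9 1.82-fold. In these counts genes of a list went both ways, and the median log2 fold change was 0.08 for maturation, 0.08 for proteases and -0.27 for integrins, beside 0.01 over all genes tested.

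**Figure D5:**
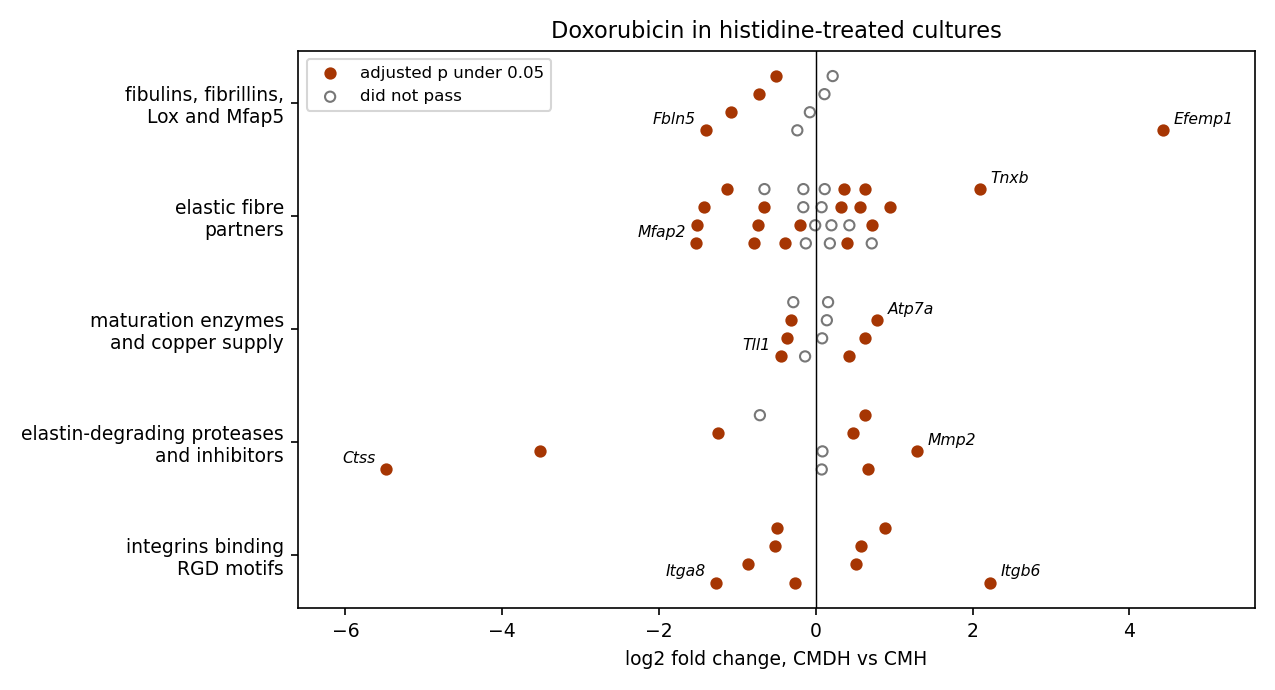
Log2 fold change in CMDH against CMH of the 9 fibulin, fibrillin, Lox and Mfap5 genes and of 4 lists of related genes, with filled points past an adjusted p of 0.05, open points not past it, vertical offset only to separate points, and the lowest and highest gene of each row named. Efemp1 at 4.43 is the highest point drawn and Ctss at -5.48 the lowest.

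Marker genes of the cell types that such cultures can hold were counted in the same contrast. It called 40.2% of all genes, 19.9% higher and 20.3% lower. Counts of markers are read against that share, and the count of fibroblast markers lay near it. Of 11 macrophage and leukocyte markers all 11 were lower in CMDH, and they summed to 162 to 187 CPM in CMDH, 168 to 255 CPM in CMD, 2062 to 2566 CPM in CMH and 2090 to 2147 CPM in CMC. Fcer1g made up most of the sums with doxorubicin, with means of 123 CPM in CMDH and 138 CPM in CMD. It fell 2.72-fold in CMDH against CMH, where falls in the list ran from 1.92-fold (Cd74) to 252-fold (Cx3cr1). All 13 cardiomyocyte markers were lower in CMDH than in CMH. Of 12 fibroblast markers 2 (Ddr2 and Dpt) were higher and 3 (Col1a2, Col1a1 and Fap) lower, and of 12 smooth muscle and pericyte markers 1 (Abcc9) was higher and 6 lower, among them Acta2, 2.22-fold, and Cnn1, 4.17-fold. The smooth muscle and pericyte markers summed to 4473 to 5565 CPM in CMDH, 2938 to 6194 CPM in CMD, 6579 to 9428 CPM in CMH and 7829 to 9190 CPM in CMC. Of 9 endothelial markers 2 (Tek and Eng) were higher and 5 (Erg, Tie1, Pecam1, Cdh5 and Kdr) lower. The 5 lower ones had group means of 1.29 to 5.06 CPM in CMH and 0.147 to 0.822 CPM in CMDH. All 9 summed to 189 to 229 CPM in CMDH and 204 to 226 CPM in CMD. Without doxorubicin they summed to 150.1 to 204 CPM in CMH and 169.7 to 192 CPM in CMC. Eng made up most of these sums, with a mean of 187 CPM in CMDH and 154 CPM in CMH. The sums therefore say little about the 5 lower markers. Of 11 mesothelial and epicardial markers 4 were higher and 4 lower, and they summed to 172 to 186 CPM in CMDH, 179 to 196 CPM in CMD, 136 to 196 CPM in CMH and 141 to 178 CPM in CMC. In that list Upk1b, a uroplakin, rose 17.8-fold, to 31.3 ± 2.04 CPM in CMDH against 1.75 ± 0.678 CPM in CMH (SD, n = 5 each), while Wt1 rose 1.35-fold and Krt18 fell 4.30-fold. No marker of these lists was at 0 in every library of a group. The part of these cell types in the changes of Efemp1, Fbln5, Fbn2, Lox and Fbln1 was not tested.

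Genes most like each member in their log2 CPM over the 20 libraries were ranked by Pearson r, as a description. The libraries share the split between cultures with and without the drug, which sets high values of r for any gene that differs by it. For Efemp1 the nearest were Galnt13 (0.992), Aass (0.991) and Upk1b (0.990), for Fbln5 Rgs4 (0.971), for Fbn2 Col14a1 (0.970), for Lox Ak4 (0.970) and for Fbln1 Pde2a (0.927). For the 4 that did not pass in CMDH against CMH the nearest were Baz2b for Fbn1 (0.957), Supt5h for Fbln2 (0.919), Il4r for Efemp2 (0.862) and Cd200r1 for Mfap5 (0.801). With group means removed, which takes out that split, the nearest to Efemp1 was Aass at 0.803, to Fbln5 Mdfic at 0.841, to Fbn2 Timp3 at 0.972, to Lox Star at 0.971, to Fbln2 Ltbp3 at 0.946, to Fbn1 Arid2 at 0.972, to Efemp2 Socs3 at 0.926, to Fbln1 Armc9 at 0.872 and to Mfap5 Cd200r1 at 0.848. Single libraries weigh in these values. Fbn2 was lowest in CMD replicate 3, Fbn1 in CMD replicate 4, and Lox was highest in replicate 3 of all 4 groups.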

How the data were processed

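Whole-number read counts and FPKM per gene came from the authors' deposited table, per the file headers; 0 columns lacked a sample. Per the labels' protocols, poly(A) RNA was copied from random primers with no step described that marks strand, so overlapping or antisense genes may not be told apart. Trimmomatic and mRatBN7.2 come from the submitters' processing notes, and an aligner or counter is not given in the sources used here. Deposited FPKM values are per gene length and library depth, per the file headers.

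Genes passing filterByExpr (15449) were fitted with edgeR 4.0.16 (R 4.3.3, TMM, 4 groups, 16 residual degrees of freedom) and tested by the quasi-likelihood F test. SE is the log2 fold change over the square root of F. CPM correlations used a prior count of 2 and genes of at least 5 CPM. Symbols (10352 genes) came from protein accessions, KEGG names and protein names matched to a GRCr8 gene table. No pair of libraries within a group (40 pairs) agreed within sampling noise (chi-square over its degrees of freedom at least 34.9). Alternatives were DESeq2 1.42.0, upper-quartile scaling, no filter, 2 groups in the fit, the replicate number as a block, limma 3.58.1 on log2(FPKM + 0.1) and log2(FPKM + 1), and libraries left out. The procedure was tested on simulated data. The members and lists were chosen with earlier results of these data known. Named genes were all members and, of each other list, up to 4 with the smallest p plus those that moved against most of their list. Fn1, Loxl1, Loxl2, Loxl3, Ctsk, Mmp9, P4ha1, Tll1 and some markers were named after their values were seen. So were Timp1, Timp2, Itgb3, Itgb5, Itgb6 and the partners Mfap2, Adamtsl2, Mfap4, Hmcn1, Ltbp4, Emilin1 and Mfap3.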

Additional observations from a re-analysis of the deposited data

Results flagged for a closer look

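A library far from the other 4 of its group was found in 3 of the 36 combinations of gene and group, where chance gives about 1 in 20. Fbln5 in CMH replicate 3 was low at 294 CPM, where the remaining CMH libraries held 456 to 519 CPM. Lox in the same library was high at 709.7 CPM, where the remaining ones held 423 to 444 CPM. Fbn1 in CMD replicate 4 was low at 1628 CPM, where the remaining CMD libraries held 2540.4 to 2874 CPM.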

How the results depend on the processing

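The count of 5 genes past the threshold in CMDH against CMH was 5 to 6 over 19 alternatives. It was 5 without any one CMDH or CMH replicate, and 6, with Fbn1 added, when CMD replicate 4 was left out of the shared fit. In the histidine contrasts and the interaction it was 0 in each alternative. Of 747 values of single genes recomputed in the tested contrasts, 739 kept their direction and side of the threshold, 0 lost their call, 3 passed only in the alternative, all of Fbn1 in CMDH against CMH, and 5 changed direction; signs that differed by less than 1 SE between values passing in neither setting were not counted as changes. Those that changed direction were Efemp2 in CMDH against CMH (0.0235 on log2(FPKM + 0.1) and 0.0233 on log2(FPKM + 1)), Fbn1 in CMDH against CMD (-0.0152 without CMD replicate 4 and -0.0435 without CMD replicates 3 and 4, with a range of -0.0152 to 0.163 without one replicate) and Fbln1 there (-0.0816 without both). Leaving out both was chosen after seeing the data. In the untested CMD against CMC, Efemp2 also changed direction on both FPKM scales (0.0708 and 0.0704). The cause was not tested.

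Over all genes, histidine alone gave 0 calls and up to 5 with DESeq2, CMDH against CMD 0 and 22 with DESeq2 (0 to 6 without one replicate), and the interaction 0 and 17. Fibroblast markers higher in CMDH than in CMH numbered 2, and 0 to 4 over alternatives, being 0 without CMDH replicate 1 or without CMH replicate 4. Smooth muscle markers higher numbered 1, and 1 to 2. Correlations between deviations of same-numbered libraries ran from -0.12 to 0.21, with 6 of 30 over 0.1, so the numbers were not taken to pair samples. All 6 pairs of replicate 3 were positive (0.0686 to 0.210), 4 of them over 0.1, and Lox was highest in replicate 3 of every group. With the replicate number as a block the count in CMDH against CMH stayed at 5 and those in the histidine contrasts and the interaction at 0, and over all genes 6310 passed in CMDH against CMH, in place of 6206. The fewest reads behind a value were 99, for Efemp1 in a CMH library.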
